A study of Homo sapiens with 6 samples.

Results

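The genes described here are 10 human genes that write, bind or remove N7-methylguanosine (m7G), a guanosine carrying a methyl group at its N7 position. They were METTL1, WDR4, BUD23, TRMT112, RNMT, RAMAC, NCBP1, NCBP2, NCBP3 and NUDT16. They were chosen by gene name for their role, by a rule that uses no measured value although earlier results of these data were known, and all 10 were among the 20308 genes of the expression tables and passed the filter on low values. RNA sequencing was performed in LNCaP-AI, an androgen-independent derivative of the prostate cancer line LNCaP that is grown under androgen deprivation and serves as a model of castration-resistant prostate cancer (CRPC). The cells carried a lentiviral short hairpin against METTL1 (shMETTL1, 3 libraries) or a scrambled hairpin (shscramble, 3 libraries), so both groups had received a hairpin and were kept under androgen deprivation. The study describes lines with stable silencing and gives 1 hairpin sequence for METTL1. Whether each line was a pool or a clone was not given in the sources used here. The study states for its data in general that there were 3 biological replicates. The labels of these libraries do not say whether they were grown as separate cultures. The p-values measure only how far these libraries spread, which may be technical.

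m7G is found in several classes of RNA and is made by several enzymes. METTL1 is the catalytic subunit of the enzyme that methylates tRNA, and also internal sites of mRNA and some miRNA precursors, and WDR4 is the partner that holds it on the tRNA. BUD23 methylates a single guanosine of 18S rRNA and needs TRMT112, a small protein that stabilises several methyltransferases. RNMT, activated by RAMAC, methylates the guanosine cap at the 5′ end of every mRNA. In the nucleus the cap is bound by NCBP2, which contacts the methylated guanosine, together with the scaffold NCBP1, while NCBP3 is an alternative cap binder that also pairs with NCBP1. NUDT16 is a Nudix hydrolase that removes caps, first described on the U8 small nucleolar RNA.

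The hairpin is shown because METTL1 was its target and the position of the target decides which METTL1 transcripts can be bound. Both arms are written 5′ to 3′. In the antisense arm capitals mark bases 2 to 8, and in the sense arm, which has the sequence of the METTL1 mRNA, they mark the bases that pair with them.
sense arm: ggaatgtagtccaTCTAAACt
antisense arm: aGTTTAGAtggactacattcc
A loop of 4 bases joins the arms. The 21 bases of the sense arm matched GRCh38 at chr12:57768651-57768671 on the minus strand, inside the last exon and the 3′ UTR of METTL1 in the GENCODE 29 annotation. The site was present in 3 of the 8 annotated METTL1 transcripts. Among 206694 annotated transcripts no other gene held the sequence with at most 2 mismatches, and no exon of CYP27B1, the neighbouring gene on the same strand, covered the site.

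For each library the authors deposited 1 FPKM value (a read level per unit of transcript length and of library depth) and 1 estimated count per gene. The totals of the estimated counts were between 3389897 and 3604835, too even to be read as sequencing depth, and the number of reads behind each value is unknown. Mitochondrial genes held between 11.2% and 13.1% of the counts. All 10 markers of prostate luminal epithelium were present, 6 with a positive and 4 with a negative log2 fold change by limma. The kallikrein KLK2 was the 1 that limma called, where it called 0.123% of all genes. KLK2 had 88.5 to 107.6 FPKM in shMETTL1 cells and 196 to 206 FPKM in shscramble cells (-1.08, adjusted p 0.0356). By edgeR 3 of the 10 were called, KLK2, KLK3 and TMPRSS2, all lower, where 3.65% of all genes were called as lower. Of the leukocyte markers CD68 passed 0.5 FPKM, and the summed list was at 5.997 to 8.11 FPKM in shMETTL1 cells and 11.8 to 16.8 FPKM in shscramble cells, while PTPRC and CD3E were listed at 0 in every library and LYZ at 0 or, in 1 library, at 7.99e-07 FPKM. The part of these differences in the results below was not tested. The library shscramble 2 stood apart. Its median Spearman correlation over genes was 0.958 with the shMETTL1 libraries and 0.948 with the other shscramble libraries, whereas each of the other 5 libraries was closer to its own group. The FPKM of shscramble 2 lay inside the shMETTL1 range for 6 of the 10 m7G genes, namely BUD23, TRMT112, RNMT, RAMAC, NCBP2 and NUDT16. The same share over all genes is not given here, so this count is not a trait of the m7G genes. The libraries shscramble 1 and shscramble 3 also lay inside that range for WDR4, BUD23 and RNMT. Because shscramble 2 stood apart over all genes, the fold changes and ratios of the 10 genes are given with and without it.

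Among the 10 genes, METTL1 was the one that differed most between the groups, with 50.7% of the shscramble FPKM left in shMETTL1 cells. Its partner WDR4, the rRNA enzyme BUD23 and the cap enzyme RNMT with RAMAC had overlapping values in both groups, while NCBP1 was higher and NCBP3 lower in FPKM without passing the test over all genes. By limma on log2(FPKM + 0.5), with Benjamini-Hochberg adjustment over 12156 genes, 0 of the 10 genes were called at an adjusted p under 0.05, where 0.123% of all genes tested were called. At an unadjusted p under 0.05 there were 2, METTL1 and NCBP3, both lower, where 14.2% of all genes passed in either direction and 6.8% passed as lower. By edgeR on the estimated counts 1 of the 10 was called, METTL1, where 6.33% of 11248 genes were called in either direction and 3.65% as lower. The FPKM of the groups did not overlap for 3 of the 10, against 19.8% of all genes tested. NCBP1 was higher without overlap, as were 10.5% of all genes, and METTL1 and NCBP3 were lower without overlap, as were 9.33%. The median log2 fold change of the 10 genes was -0.18, and that of all genes tested was 0.02.

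METTL1 (ENSG00000037897, GRCh38 chr12:57768471-57772793, minus strand) had 8.35, 10.5 and 8.18 FPKM in the shMETTL1 libraries, against 13.9, 18.5 and 21.0 FPKM in the shscramble libraries. The groups did not overlap, and every shMETTL1 library was below every shscramble library. The means were 9.02 ± 1.30 FPKM in shMETTL1 cells and 17.8 ± 3.62 FPKM in shscramble cells (SD, n = 3 each), so that 50.7% of the shscramble mean was left. In bulk RNA, fewer cells of a type and less RNA per cell cannot be told apart, so this value does not say whether all cells carried the reduction equally.

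The limma log2 fold change of METTL1 was -0.93 (SE 0.22, 95% interval -1.43 to -0.43), and the adjusted p by limma was 0.127 (0.0021 before adjustment). Permuting the libraries exactly and two-sided gave p = 0.1, the smallest that 3 libraries against 3 allow. The estimated counts showed a larger difference, with 9.52, 28.5 and 20.5 in the shMETTL1 libraries against 36.4, 48.6 and 65.1 in the shscramble libraries. By edgeR this was a log2 fold change of -1.36 with an adjusted p of 0.0368, and by DESeq2 one of -1.37 with an adjusted p of 0.0306. METTL1 therefore fell by the count models and missed the threshold of the FPKM model. The edgeR call was lost without shMETTL1 1 (log2 fold change -1.05, adjusted p 0.142), without shMETTL1 3 (-1.42, adjusted p 0.109) and without shscramble 3 (-1.13, adjusted p 0.187), with the direction kept in each. Without shscramble 2 the log2 fold change was -0.89 by limma (adjusted p 0.106) and -1.42 by edgeR (adjusted p 0.0206).

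The depth of silencing differed between the units, mostly in 1 library. In FPKM the shMETTL1 libraries held 47.0%, 59.2% and 46.0% of the shscramble mean. In estimated counts they held 19.0%, 57.0% and 41.0%. Library shMETTL1 1 was thus the lowest by count and close to shMETTL1 3 by FPKM. Dividing the count by the FPKM gives a value that follows the transcript length used for the FPKM. For METTL1 it was 1.14, 2.71 and 2.51 in the shMETTL1 libraries and 2.63, 2.63 and 3.10 in the shscramble libraries. Only shMETTL1 1 was below 2. The coefficient of variation of this quotient was 27.5% over the 6 libraries, and 87.3% of 11802 genes varied less, with a median of 11.3%. The 8 annotated METTL1 transcripts are between 371 and 2066 bases long, and the tables do not say how reads were shared among them. The part of transcript assignment in the FPKM of METTL1 was not tested.

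**Figure D1:**
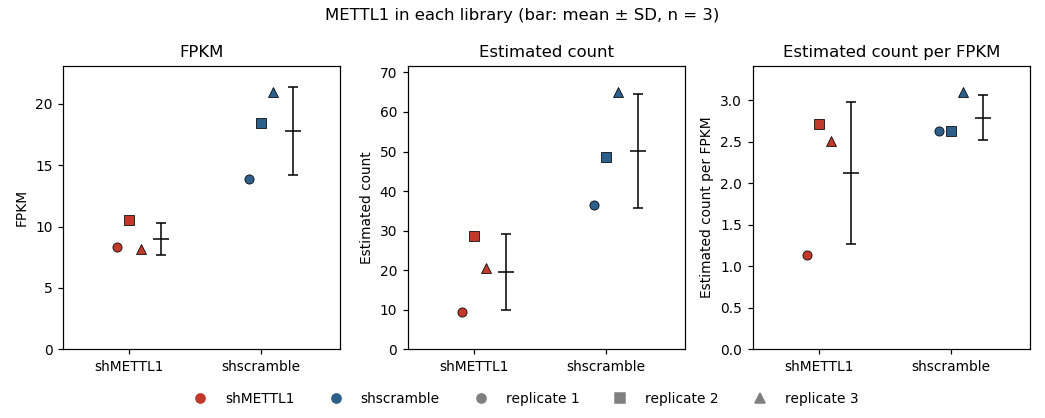
METTL1 in each of the 6 libraries as FPKM (left), as estimated count (middle) and as estimated count divided by FPKM (right). Each point is 1 library, its shape gives the replicate number and the bar is the mean ± SD (n = 3). In FPKM and in counts all shMETTL1 libraries are below all shscramble libraries, and in the right panel shMETTL1 1 is at 1.14 while the other 5 are between 2.51 and 3.10.

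WDR4 (ENSG00000160193, chr21:42843094-42879568, minus strand), which forms the tRNA methyltransferase with METTL1, had 10.4, 6.03 and 9.12 FPKM in the shMETTL1 libraries, against 8.32, 2.93 and 7.55 FPKM in the shscramble libraries. The groups overlapped, and replicate 2 was the lowest library of each group. The log2 fold change was 0.50 (SE 0.38, 95% interval -0.36 to 1.36, adjusted p 0.580 by limma), the widest interval of the 10 genes. It rested on shscramble 2, since it was 0.06 without that library by limma and -0.21 by edgeR. With an interval that reaches from a decrease of 0.36 to an increase of 1.36 on the log2 scale, these libraries do not fix the direction of WDR4.

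The ratio of METTL1 to WDR4 compares the catalytic subunit with its partner within each library. FPKM is per length, but the count per FPKM, which follows that length, varied between libraries for both genes. Its coefficient of variation was 27.5% for METTL1 and 17.7% for WDR4, where the median over genes was 11.3%. The part of this variation in the ratio was not tested. The ratio is given in FPKM first. It was 0.804, 1.74 and 0.897 in the shMETTL1 libraries, against 1.67, 6.31 and 2.78 in the shscramble libraries. METTL1 was above WDR4 in all 3 shscramble libraries and in shMETTL1 2, whose ratio was higher than that of shscramble 1, so the groups overlapped. The mean log2 ratio differed by -1.51 (exact two-sided permutation test, p = 0.2, adjusted over 4 ratios 0.267), and by -0.996 without shscramble 2, on which its size rested. In estimated counts the difference was -1.80, the groups did not overlap and the exact permutation p was 0.1.

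BUD23 (ENSG00000071462, chr7:73683025-73705161, plus strand), the enzyme that methylates 18S rRNA, had 33.8, 30.5 and 45.1 FPKM in the shMETTL1 libraries, against 34.7, 35.5 and 38.6 FPKM in the shscramble libraries. All shscramble values lay within the shMETTL1 range. BUD23 had a log2 fold change of -0.01 (SE 0.18, 95% interval -0.41 to 0.39, adjusted p 0.982 by limma), and its sign changed in 12 of 25 alternative settings (-0.03 without shscramble 2). TRMT112 (ENSG00000173113, chr11:64316460-64318084, minus strand), the cofactor of BUD23, had 85.4, 64.4 and 77.9 FPKM in the shMETTL1 libraries, against 42.6, 68.0 and 61.8 FPKM in the shscramble libraries. Here shscramble 2 was the library that made the groups overlap. For TRMT112 the log2 fold change was 0.42 (SE 0.20, 95% interval -0.03 to 0.87, adjusted p 0.383 by limma), positive in all 25 alternative settings and called in none. Without shscramble 2 it was 0.55, with an adjusted p of 0.174 by limma and 0.1003 by edgeR. A processed pseudogene, TRMT112P6, was above 0 in 1 library (1.4 FPKM), and the share of reads exchanged between TRMT112 and its copies was not tested.

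The ratio of BUD23 to TRMT112 was 0.396, 0.473 and 0.578 in the shMETTL1 libraries, against 0.815, 0.522 and 0.625 in the shscramble libraries. In all 6 libraries TRMT112 was the more abundant of the pair. The mean log2 ratio differed by -0.43 (exact permutation p = 0.2, adjusted 0.267), with overlapping groups in FPKM and groups that did not overlap in counts (-0.32, exact permutation p = 0.1). Without shscramble 2 the difference in FPKM was -0.58.

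RNMT (ENSG00000101654, chr18:13726660-13764558, plus strand), the cap methyltransferase, had 15.5, 12.2 and 10.1 FPKM in the shMETTL1 libraries, against 14.99, 13.1 and 14.3 FPKM in the shscramble libraries. The groups overlapped, and shMETTL1 1 was above all shscramble libraries while the other shMETTL1 libraries were below them. RNMT had a log2 fold change of -0.18 (SE 0.21, 95% interval -0.64 to 0.29, adjusted p 0.731 by limma), and -0.23 without shscramble 2. The estimated counts hardly differed, at 250.2, 243 and 224 in the shMETTL1 libraries and 243, 230.1 and 229.9 in the shscramble libraries. The count per FPKM of RNMT was 16.2, 19.9 and 22.1 in the shMETTL1 libraries and 16.2, 17.6 and 16.1 in the shscramble libraries. With counts so even, this quotient has to rise where the FPKM falls. The part of transcript length in the FPKM of RNMT was not tested. RAMAC (ENSG00000169612, chr15:82986207-82991057, plus strand), the activating subunit of RNMT, had 12.8, 18.5 and 12.4 FPKM in the shMETTL1 libraries, against 14.05, 14.4 and 21.3 FPKM in the shscramble libraries. In each group 1 library was well above the others. For RAMAC it was -0.18 (SE 0.24, 95% interval -0.72 to 0.36, adjusted p 0.763 by limma), and -0.27 without shscramble 2. The ratio of RNMT to RAMAC was 1.21, 0.663 and 0.817 in the shMETTL1 libraries and 1.07, 0.910 and 0.672 in the shscramble libraries, with a difference of 0.00 on the log2 scale (exact permutation p = 1), and of 0.04 without shscramble 2. The ranges of the groups overlapped almost throughout, with 1 library of each group above 1.

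Beside METTL1, the FPKM of NCBP1 and NCBP3 did not overlap between the groups, in opposite directions, where 19.8% of all genes did not overlap. NCBP1 (ENSG00000136937, chr9:97633626-97673748, plus strand), the scaffold of the cap-binding complex, had 24.8, 32.1 and 23.1 FPKM in the shMETTL1 libraries, against 18.8, 20.4 and 21.6 FPKM in the shscramble libraries. The groups did not overlap in FPKM or in counts. The log2 fold change was 0.38 (SE 0.18, 95% interval -0.03 to 0.78, adjusted p 0.383 by limma and 0.205 by edgeR), the exact permutation p was 0.1, and the value without shscramble 2 was also 0.38. NCBP1 was positive in all 25 alternative settings and called in none.

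NCBP2 (ENSG00000114503, chr3:196935402-196942597, minus strand), the subunit that contacts the methylated cap, had 65.4, 67.4 and 74.7 FPKM in the shMETTL1 libraries, against 123, 67.9 and 103 FPKM in the shscramble libraries. The shMETTL1 libraries were tightly grouped, and shscramble 2 fell among them. The log2 fold change was -0.46 (SE 0.21, 95% interval -0.93 to 0.01, adjusted p 0.364 by limma and 0.222 by edgeR). Without shscramble 2 the groups did not overlap, and the log2 fold change was -0.70 by limma (adjusted p 0.0592) and -0.45 by edgeR (adjusted p 0.00699). NCBP2 shares bases with an antisense gene, NCBP2-AS1, and whether the counting used strand was not given in the sources used here, so reads of the pair cannot be told apart.

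NCBP1 and NCBP2 work as a heterodimer, and their ratio separated the groups, as NCBP1 did by itself. In counts the ratios METTL1 to WDR4 and BUD23 to TRMT112 separated the groups too. How often ratios of other genes do so was not tested. The ratio of NCBP2 to NCBP1 was 2.64, 2.10 and 3.24 in the shMETTL1 libraries, against 6.57, 3.32 and 4.78 in the shscramble libraries. The groups did not overlap, though shMETTL1 3 and shscramble 2 were close. The mean log2 ratio differed by -0.85 in FPKM and by -0.55 in counts, each with an exact permutation p of 0.1, and the adjusted p over the 4 ratios was 0.267, which such small groups cannot bring under the threshold. Without shscramble 2 the difference in FPKM was -1.10.

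**Figure D2:**
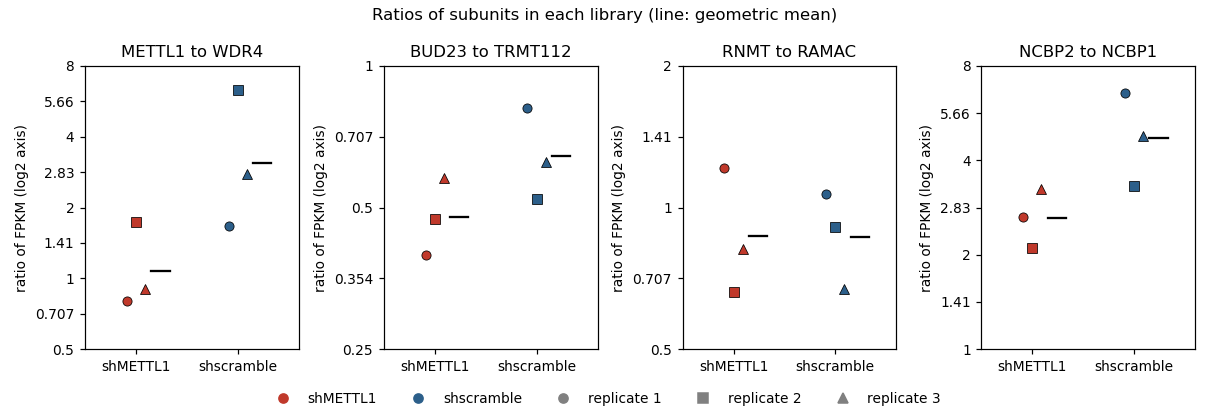
Ratio of FPKM of each subunit to its partner in each library, on log2 axes that differ in range between panels. Each point is 1 library, its shape gives the replicate number and the line is the geometric mean of the group. The 3 shMETTL1 libraries are below the 3 shscramble libraries only for NCBP2 to NCBP1 (2.10 to 3.24 against 3.32 to 6.57), and the groups overlap in the other panels.

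NCBP3 (ENSG00000074356, chr17:3802165-3846251, minus strand), the alternative cap binder, had 20.9, 23.4 and 24.1 FPKM in the shMETTL1 libraries, against 26.5, 31.6 and 31.9 FPKM in the shscramble libraries. The groups did not overlap. NCBP3 had a log2 fold change of -0.39 (SE 0.16, 95% interval -0.75 to -0.02), and the adjusted p by limma was 0.332 (0.039 before adjustment). In estimated counts the difference was smaller and the groups overlapped, with 220, 230.5 and 215 in the shMETTL1 libraries and 249, 221 and 273 in the shscramble libraries, and edgeR gave a log2 fold change of -0.22 (adjusted p 0.381). It was negative in all 25 alternative settings and called in none, with -0.35 by limma and -0.33 by edgeR without shscramble 2.

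NUDT16 (ENSG00000198585, chr3:131381671-131388830, plus strand), the decapping hydrolase, had 18.3, 17.1 and 20.4 FPKM in the shMETTL1 libraries, against 23.97, 18.4 and 21.7 FPKM in the shscramble libraries. Only shscramble 2 reached into the shMETTL1 range. The log2 fold change was -0.19 (SE 0.18, 95% interval -0.59 to 0.21, adjusted p 0.647 by limma). In estimated counts NUDT16 had 378, 373 and 396 in the shMETTL1 libraries and 505, 386 and 491 in the shscramble libraries, and edgeR gave a log2 fold change of -0.33 (adjusted p 0.169). Without shscramble 2 edgeR gave -0.48 (adjusted p 0.00583), whereas limma gave -0.29 (adjusted p 0.378).

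Leaving out shscramble 2 thus moved several of these genes at once, and genes in general as well. That library stood out in these same data by its closeness to the shMETTL1 libraries, so leaving it out tends to widen group differences. Ranges also overlap less often by chance with fewer libraries. With all 6 libraries 19.8% of all genes did not overlap and edgeR called 6.33%. Without shscramble 2 the FPKM of the groups did not overlap for 6 of the 10 genes, where 39.2% of all genes did not overlap. TRMT112 and NCBP1 were higher and METTL1, NCBP2, NCBP3 and NUDT16 lower. By edgeR 3 of the 10 were then called, METTL1, NCBP2 and NUDT16, all lower, where 17.5% of all genes were called, and by limma 0 were, where 1.28% were.

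**Figure D3:**
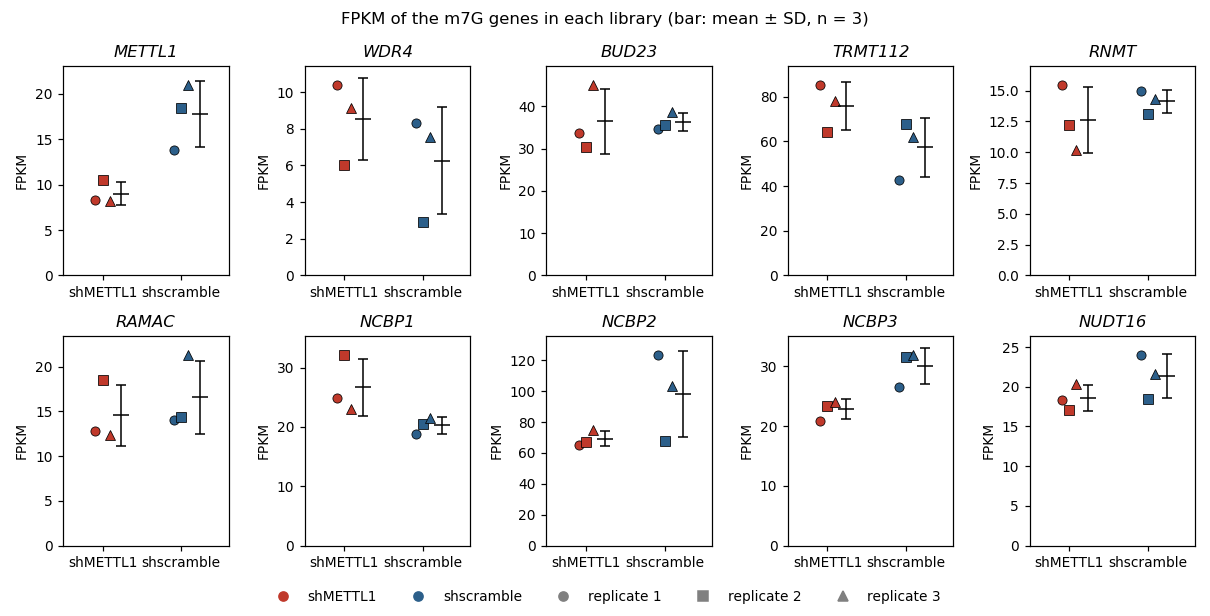
FPKM of the 10 m7G genes in each library, 1 panel per gene, with axes that start at 0 and differ in range. Each point is 1 library, its shape gives the replicate number and the bar is the mean ± SD (n = 3). The groups separate for METTL1, NCBP1 and NCBP3, and for TRMT112, NCBP2 and NUDT16 the square of shscramble 2 is the one that falls among the shMETTL1 values.

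**Figure D4:**
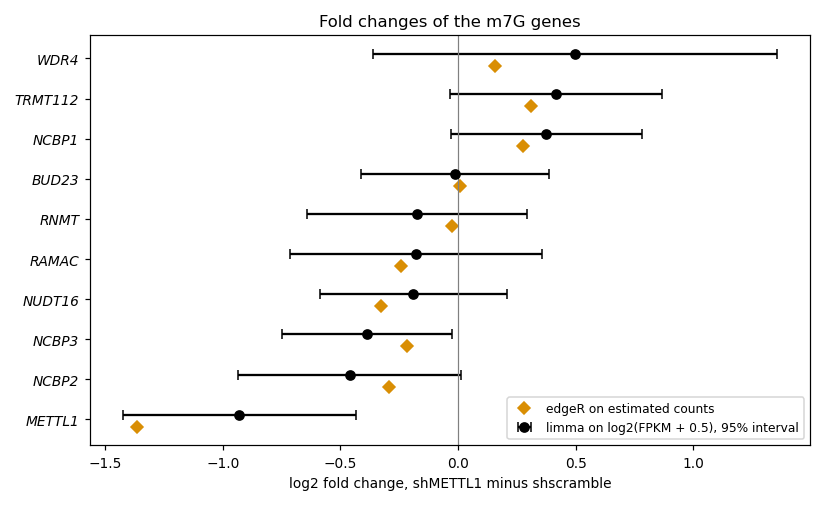
Log2 fold change (shMETTL1 minus shscramble) of each m7G gene by limma on log2(FPKM + 0.5), with its 95% interval, and by edgeR on estimated counts. The interval of METTL1 (-1.43 to -0.43) and that of NCBP3 (-0.75 to -0.02) lie below 0 before adjustment over all genes, and METTL1 is lower by edgeR (-1.36) than by limma (-0.93).

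The 10 genes were ordered by their mean FPKM, which is per length. In shMETTL1 cells TRMT112 led with 75.9 FPKM, followed by NCBP2 (69.2), BUD23 (36.4), NCBP1 (26.7), NCBP3 (22.8), NUDT16 (18.6), RAMAC (14.6), RNMT (12.6), METTL1 (9.02) and WDR4 (8.51). In this order only the steps NCBP2 to BUD23 and NCBP3 to NUDT16 had ranges that did not overlap. In shscramble cells NCBP2 led with 98.1 FPKM, followed by TRMT112 (57.5), BUD23 (36.3), NCBP3 (30.0), NUDT16 (21.4), NCBP1 (20.3), METTL1 (17.8), RAMAC (16.6), RNMT (14.1) and WDR4 (6.27). There the ranges did not overlap at the steps TRMT112 to BUD23, BUD23 to NCBP3, NCBP3 to NUDT16 and RNMT to WDR4. METTL1 was thus the ninth of the 10 genes in shMETTL1 cells and the seventh in shscramble cells. By its mean over all 6 libraries METTL1 was above 49.3% of all genes tested, WDR4 above 32.2% and NCBP2 above 92.6%.

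The other genes of m7G biology were taken from lists of TRMT112 partners, cap synthesis, nuclear cap binding, cap-dependent initiation, decapping and m7G reading. By limma 0 of the genes on these lists were called, again beside 0.123% of all genes tested. The 7 methyltransferases that TRMT112 stabilises, BUD23 among them, had a median log2 fold change of -0.08. By limma 0 of the 7 passed an unadjusted p under 0.05, beside 14.2% of all genes. By edgeR 0 of the 7 were called, beside 6.33% of all genes. TRMT11, which methylates guanosine in tRNA, had 17.9, 21.0 and 18.7 FPKM in shMETTL1 cells, against 33.2, 19.6 and 28.1 FPKM in shscramble cells, where shscramble 2 again overlapped (log2 fold change -0.45, adjusted p 0.377). N6AMT1, a protein methyltransferase, had a log2 fold change of -0.49 (adjusted p 0.489, and -0.46 by edgeR, adjusted p 0.205) and THUMPD2 one of -0.32 (adjusted p 0.480).

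The 8 genes of cap synthesis and modification, RNMT and RAMAC included, had a median log2 fold change of 0.03. By limma 0 of the 8 passed an unadjusted p under 0.05, beside 14.2% of all genes. By edgeR 0 passed it too, a share not given here over all genes, and 0 were called, beside 6.33%. The smallest p-values were those of CMTR2, a cap ribose methyltransferase (0.23, adjusted p 0.604), MEPCE, which caps the 7SK RNA (0.23, adjusted p 0.606), and RNGTT, the enzyme that adds the guanosine cap (0.31, adjusted p 0.629). Among 8 partners of the nuclear cap-binding complex the median was 0.13. By limma 0 of them passed an unadjusted p under 0.05, beside 14.2% of all genes. By edgeR 0 of the 8 were called, beside 6.33% of all genes. SRRT, which links the complex to RNA processing, had 60.5, 51.0 and 72.0 FPKM in shMETTL1 cells, against 48.3, 48.1 and 51.3 FPKM in shscramble cells (log2 fold change 0.30, adjusted p 0.433, and 0.28 by edgeR, adjusted p 0.182). KPNA2, an importin, had a log2 fold change of 0.24 (adjusted p 0.524), and ZC3H18 one of -0.26 (adjusted p 0.554).

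The 10 genes of cap-dependent initiation had a median of -0.01. By limma 0 of them passed an unadjusted p under 0.05, beside 14.2% of all genes. By edgeR 0 of the 10 were called, beside 6.33% of all genes. EIF4E2, a cap binder related to EIF4E, had 34.5, 35.4 and 39.5 FPKM in shMETTL1 cells, against 37.5, 45.6 and 72.9 FPKM in shscramble cells, where shscramble 3 set the difference (log2 fold change -0.45, adjusted p 0.407, and 0.00 by edgeR). EIF4B, a helicase cofactor, had a log2 fold change of -0.19 (adjusted p 0.484) and the scaffold EIF4G1 one of 0.19 (adjusted p 0.533, and 0.23 by edgeR, adjusted p 0.211). QKI, which encodes RNA-binding proteins described as readers of internal m7G, had 53.0, 71.5 and 77.8 FPKM in shMETTL1 cells and 77.0, 51.6 and 64.3 FPKM in shscramble cells, which overlapped (log2 fold change 0.07, adjusted p 0.904). Its estimated counts did not overlap, with 566, 539 and 463 in shMETTL1 cells and 420, 407 and 415 in shscramble cells (0.28 by edgeR, adjusted p 0.162).

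Of the 13 listed genes of decapping and 5′ decay 12 were in the tables, with a median log2 fold change of 0.17. By limma 10 of the 12 had a positive value, where 52.5% of all genes did, and by edgeR 8 of the 12, where 50% did. Of the 12, 2 passed an unadjusted p under 0.05 by limma, both higher, beside 7.37% of all genes in that direction. DXO, a decapping exonuclease, had 11.05, 8.35 and 9.0004 FPKM in shMETTL1 cells, against 5.22, 6.97 and 3.61 FPKM in shscramble cells (log2 fold change 0.82, adjusted p 0.243), but only 0.26 by edgeR (adjusted p 0.678). DDX6, a helicase that activates decapping, had 128.7, 132.9 and 129.8 FPKM in shMETTL1 cells, against 107.4, 96.5 and 110.3 FPKM in shscramble cells (log2 fold change 0.32, adjusted p 0.312, and 0.37 by edgeR, adjusted p 0.0622). Its counts did not overlap either, DESeq2 called it higher (adjusted p 0.0154), and it passed the threshold in 7 of 25 alternative settings. XRN1, the main cytoplasmic 5′ exonuclease, was the 1 gene of these 12 that edgeR called, beside 6.33% of all genes, with a log2 fold change of -0.54 (adjusted p 0.0262) and 443, 446 and 331 estimated counts in shMETTL1 cells and 546, 523 and 636 in shscramble cells. In FPKM XRN1 had 23.8, 38.8 and 38.6 in shMETTL1 cells and 36.05, 31.3 and 27.5 in shscramble cells (log2 fold change 0.07, adjusted p 0.915 by limma), so the units gave opposite signs for it. The edgeR call of XRN1 held without shscramble 2 (adjusted p 0.0016) and was lost without shMETTL1 1 (0.0667), shMETTL1 2 (0.0577), shMETTL1 3 (0.116), shscramble 1 (0.0517) or shscramble 3 (0.157). Without shscramble 2, where edgeR called 17.5% of all genes, it also called TRMT11 lower (-0.65, adjusted p 0.012), the nuclear exonuclease XRN2 lower (-0.46, adjusted p 0.00797) and DDX6 higher (0.28, adjusted p 0.0452). XRN2 was singled out after its values were seen.

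**Figure D5:**
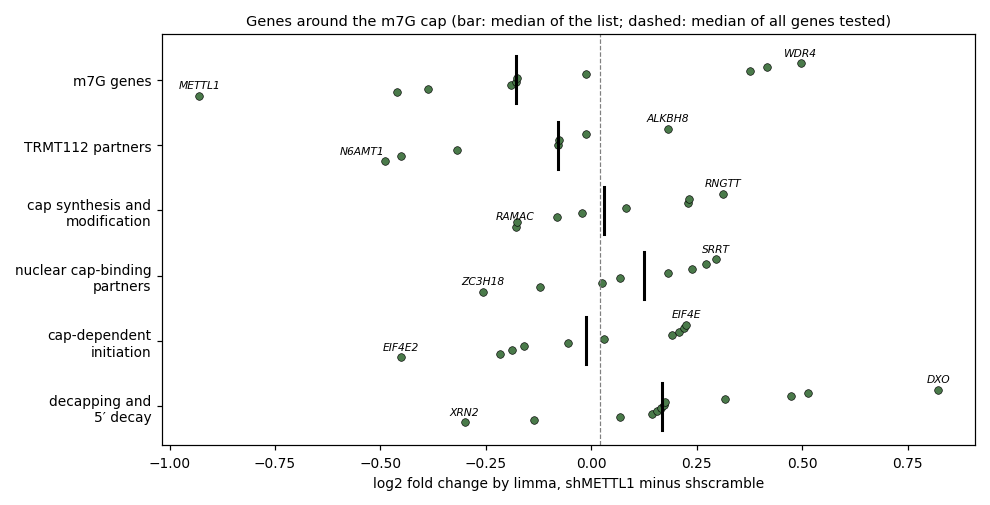
Log2 fold change by limma (shMETTL1 minus shscramble) of each tested gene on the list of m7G genes and on 5 lists of genes around the m7G cap. Each point is 1 gene, the bar is the median of the list and the dashed line is the median of all genes tested (0.02). METTL1 is the lowest point of all (-0.93) and DXO the highest (0.82), and the medians of the lists lie between -0.18 and 0.17.

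The neighbours of METTL1 on chromosome 12 were examined because CYP27B1 overlaps METTL1 by 516 bases on the same strand and EEF1AKMT3 by 1302 bases on the opposite strand in GENCODE 29. Of 9 listed neighbours 8 passed the filter of limma and 7 that of edgeR. By limma 0 were called, beside 0.123% of all genes, and 0 had an unadjusted p under 0.05, beside 14.2%. By edgeR 0 were called, beside 6.33% of all genes. An unadjusted p under 0.05 by edgeR was reached by 0 as well, and its share over all genes is not given here. Counts of 0 among so few genes are near these shares. EEF1AKMT3, a lysine methyltransferase, had 10.1, 7.28 and 5.004 FPKM in shMETTL1 cells, against 5.91, 4.34 and 1.94 FPKM in shscramble cells, with overlapping groups (log2 fold change 0.86, adjusted p 0.365). Its fold change had the opposite sign to that of METTL1 without passing the test, and reads in the shared bases cannot be assigned to either gene without strand. CYP27B1, the vitamin D hydroxylase, was low, with 0, 0.325 and 2.97 FPKM in shMETTL1 cells and 0.670, 1.40 and 0.768 FPKM in shscramble cells (log2 fold change -0.33, adjusted p 0.863). CDK4, TSFM, TSPAN31, MARCHF9, AVIL and OS9 had log2 fold changes between -0.28 and 0.14 by limma with adjusted p-values of 0.548 or more. Limma did not call METTL1 either, so these p-values cannot say whether its difference was shared. By edgeR the fold changes of these neighbours lay between -0.29 (TSFM, adjusted p 0.309) and 0.04 (CDK4, adjusted p 0.912), beside -1.36 for METTL1. The estimated counts of TSFM were lower in shMETTL1 cells without overlap. Other members also share bases with genes on the opposite strand, BUD23 with STX1A (5956 bases) and DNAJC30 (429 bases), RAMAC with C15orf40 (2617 bases), TRMT112 with ESRRA (284 bases) and NCBP1 with an antisense gene (1537 bases). RAMAC also shares 4851 bases with AC022558.2 on its own strand, where strand would not separate the reads.

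The genes whose levels were most like those of METTL1 were found by Pearson's r of log2(FPKM + 0.5) over the 6 libraries, among 9338 genes with a mean of at least 5 FPKM. They were SULT1A1 (0.995), MIGA1 (0.994), COL6A2 (0.986), RNF169 (0.985) and SBF2 (0.983). The 6 points fall into the 2 groups and share the same libraries, so these values describe the order of the libraries and carry no test. SULT1A1, a sulfotransferase, had 10.9, 13.1 and 9.94 FPKM in shMETTL1 cells, against 15.4, 19.3 and 20.9 FPKM in shscramble cells, the same order of libraries as METTL1, though SULT1A1 has close paralogs with which it may share reads. Among the other m7G genes NCBP3 was the most like METTL1, with r = 0.947, above which lay 0.407% of the 9338 genes. RAMAC had 0.62, NCBP2 0.473, RNMT 0.356, NUDT16 0.333 and BUD23 -0.045, while TRMT112 (-0.489), NCBP1 (-0.504) and WDR4 (-0.579) had negative values. Such values were common, since a higher r was held by 77.8% of genes for TRMT112, 78.8% for NCBP1 and 83.4% for WDR4.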

How the data were processed

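LNCaP-AI cells with shMETTL1 (3 libraries) or shscramble (3 libraries) were sequenced as paired 150 bp reads. Tools named in the notes of the submitters are HISAT2 2.0.4, cutadapt 1.9.3, Cuffdiff and Cufflinks, and the build named is hg19, without roles. The authors deposited FPKM, which divides by transcript length and by depth, so that a wrong isoform length moves it. They also deposited estimated counts by the authors' tools, few of them whole, with nearly equal totals that hide the read depth. These were rounded for the count models.

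The main test was limma 3.58.1 (R 4.3.3, trend and robust) on log2(FPKM + 0.5) on genes whose mean FPKM reached 0.5, two-sided, with Benjamini-Hochberg adjustment over all genes and calls at 0.05. The pseudocount understates changes of low genes. Alternatives were edgeR 4.0.16 (quasi-likelihood), DESeq2 1.42.0, limma on log2 CPM, other pseudocounts, filters and scalings, a replicate block and leaving out each library. Ratios were compared by exact permutation tests. The fits were tested on simulated data. Positions come from GENCODE 29 (GRCh38) and the hairpin from the study's list of oligonucleotides. Of 20308 genes 19434 (95.7%) had a symbol.

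The members and lists were chosen with earlier results of these data known. The text names all members, every neighbour of METTL1 with a mean of at least 0.5 FPKM, the 5 genes most like METTL1 and, in each pathway list, the genes called by limma or edgeR and up to 3 with the smallest p. Of the leukocyte list 1 marker is not reported here.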

Additional observations from a re-analysis of the deposited data

How the results depend on the processing

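The fold changes of METTL1, TRMT112, NCBP1, NCBP2, NCBP3 and NUDT16 kept their direction in all 25 alternative settings each. METTL1 passed the threshold with edgeR (log2 fold change -1.36, also -1.36 without TMM and -1.36 without a filter), DESeq2 (-1.37), limma on log2 CPM (-1.39) and edgeR with a replicate block (-1.40), and leaving out single libraries gave -1.09 to -0.80 by limma and, where edgeR still called it, -1.72, -1.52 (without shscramble 1) and -1.42 (without shscramble 2). BUD23, near 0, changed sign with edgeR (0.00713, without TMM 0.0153, without a filter 0.0145), DESeq2 (0.0106), log2 CPM (0.00779) and without single libraries (limma -0.17 to 0.10, edgeR without shMETTL1 1 0.0393, shMETTL1 2 0.0904, shscramble 1 0.0284 and shscramble 2 0.00572). WDR4 reversed without shscramble 2 by edgeR (-0.21), RNMT by edgeR without shMETTL1 3 (0.00738) and without shscramble 1 (0.0445), RAMAC without shscramble 3 (limma range -0.36 to 0.00896), and the RNMT to RAMAC ratio without shMETTL1 1 (-0.24) and without shscramble 3 (-0.18, highest 0.20). The cause was not tested.

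By limma 15 genes were called in all, and the number was 4 with no filter, 712 with edgeR, 666 without TMM, 1094 with edgeR and no filter, 712 with DESeq2, 719 with limma on log2 CPM and 1090 by the thresholds of the study (p under 0.05 unadjusted, over 1.5-fold). Without single libraries it was 3 to 156 by limma and, by edgeR, 299, 295 and 328 without shMETTL1 1, 2 and 3 and 443, 1989 and 270 without shscramble 1, 2 and 3, so that shscramble 2 set the highest count in both. A replicate block gave 6 with limma and 970 with edgeR. Libraries with the same number did not deviate together (correlations 0.00237, 0.0526 and -0.0238). These values show no pairing by number but cannot settle it, and the labels do not say whether libraries were handled in pairs. The unknown read depth and 3 libraries a group limit all values, and exact permutation tests cannot go below 0.1.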
